A study of Rattus norvegicus with 8 samples.

Results

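The genes described here encode the proteins of the cytosolic ribosome, measured in rat retina after transcorneal electrical stimulation (TES). Members were set by a rule on names alone, though the family was picked with earlier results of these data known. A probe set entered if the array annotation gave it exactly 1 gene symbol beginning with Rpl or Rps and a digit. Symbols equal to Rplp0, Rplp1, Rplp2 or Rpsa also entered, and the ribosomal S6 kinases (Rps6k) were left out. This gave 75 genes of 16633, on 391 of the 213067 probe sets of the array, where a probe set is a small group of probes on 1 stretch of a transcript. Of the 75 genes, 39 encode proteins of the large (60S) subunit and 25 proteins of the small (40S) subunit. A further 7 are paralogs, 3 are annotated as pseudogenes, and 1, Rps19bp1, encodes a protein that binds Rps19 and is not itself a ribosomal protein.

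Retinas came from male Brown Norway rats, 8 weeks old, 4 h after TES, in which a current is passed through the eye from an electrode on the cornea, or 4 h after a sham procedure, a group that the sample titles call TES Control. No transgene or further agent is named for either group. There were 4 TES and 4 sham samples, each on 1 Affymetrix Rat Gene 1.0 ST array. Label and series text name different makers of the RNA kit and different numbers of labelling cycles. Neither says which animal an array came from, and p-values therefore reflect the spread between these samples alone, part of which may be technical.

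A cytosolic ribosome is built from ribosomal RNA and about as many different proteins as there are genes in this family, with a single copy of nearly every protein per ribosome. Cells make the proteins of both subunits in matched amounts, largely by controlling translation of their mRNAs, which begin with a C followed by a tract of pyrimidines (the 5′ terminal oligopyrimidine tract) that couples them to mTOR signalling. In the retina, photoreceptors renew their outer segments continuously and carry a high demand for protein synthesis.

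The start of the transcript, where the pyrimidine tract would lie, is shown for the 4 subunit genes with the smallest p-values and for Rps3 and Rps12, the small-subunit genes with the most negative differences among those at a clear signal. Each sequence is 60 bases, 40 before and 20 from the transcript start that RefSeq annotates on the GRCr8 assembly, read 5′ to 3′ on the strand of the gene. Capitals mark runs of at least 8 bases that are each C or T.
Rpl6, chr12:41011671-41011730, minus strand: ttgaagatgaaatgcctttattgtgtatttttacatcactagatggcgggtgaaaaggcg
Rpl35a, chr11:81235002-81235061, minus strand: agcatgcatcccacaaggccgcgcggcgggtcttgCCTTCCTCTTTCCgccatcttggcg
Rpl34, chr2:221962264-221962323, minus strand: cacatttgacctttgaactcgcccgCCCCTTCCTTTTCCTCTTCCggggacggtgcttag
Rpl26, chr10:54109652-54109711, plus strand: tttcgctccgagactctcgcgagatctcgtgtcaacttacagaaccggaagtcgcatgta
Rps12, chr1:23500035-23500094, plus strand: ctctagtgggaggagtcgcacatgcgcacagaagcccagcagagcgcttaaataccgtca
Rps3, chr1:163195757-163195816, minus strand: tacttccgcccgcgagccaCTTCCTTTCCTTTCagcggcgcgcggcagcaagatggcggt
The runs in Rpl35a, Rpl34 and Rps3 are 13, 20 and 14 bases long and lie over or just before the annotated start. The windows of Rpl6, Rpl26 and Rps12 hold none. Where transcripts start in these retinas was not measured, and a tract at a start other than the annotated one would be missed.

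Promoter sequences were matched for 62 of the 75 genes. A C at the annotated start followed by 4 pyrimidines stood in 22 of the 62 (35.5%), against 2.63% of 27456 promoters of the same 300-base length. A run of at least 8 pyrimidines within 20 bases of the start stood in 44 of the 62 (71.0%), against 15.5% of all promoters. The letters CCGGAAG, the core bound by ETS-family factors, stood on either strand in 20 of the 62 (32.3%), against 9.22% of all promoters. The letters AAGATGGC, the core bound by YY1, stood on either strand in 5 (8.06%), against 3.44%. These are matches of letters, and no binding was measured.

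The retinal label was checked against rod photoreceptor genes, of which 18 of the 20 listed were measured. Summed on a linear scale, they gave 23209 to 26731 on the TES arrays and 23714 to 25965 on the sham arrays. Gnat1, the rod transducin subunit, averaged 12.44 in TES retinas and 12.45 in sham retinas on the log2 scale. Of the 18 genes, 9 were higher and 9 lower in TES retinas. The smallest p-values were those of Rom1, at -0.38 (unadjusted p = 0.0389, limma), and Cnga1, at 0.12 (unadjusted p = 0.337, limma). Values are log2 GC-RMA signals, in which each probe is corrected for background by its base composition, and differences are given as TES minus sham on that scale. The base of the logarithm is not stated and was read as 2 from the range of the values, 0.549 to 13.2. Array medians lay between 5.32 and 5.41, and pairwise correlations between arrays, taken over genes, which are not independent replicates, lay between 0.990 and 0.994. In whole tissue, fewer cells of a type and less RNA per cell cannot be told apart.

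Signals of the 75 genes ran from 1.53 to 11.18 with a median of 6.46, against a median of 5.16 over all genes. The 95th percentile of 1100 olfactory receptor genes, 3.10, served as a guide to low signal, and 66 of the 75 genes lay above it. The 9 at or below it were Rpl26, Rps7, Rps23, Rpl3l, Rpl10l, Rpl22l1, Rpl26l1, Rpl13-ps1 and Rpl29-ps2. Signals of different genes are not compared here, because probe sets differ in how strongly they bind.

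No ribosomal protein gene passed an adjusted p of 0.05 in limma, with Benjamini-Hochberg adjustment over all genes, and neither did any other gene (0% of 16633). The smallest adjusted p of the 75 was 0.817. At an unadjusted p under 0.05 stood 5 of the 75 (6.67%), against a background of 5.57% (927 of 16633 genes). Of these 5, Rpl6 and the pseudogene Rpl37a-ps2 were higher in TES retinas, where the background is 2.35%, and Rpl35a, Rpl34 and Rpl26 were lower, where it is 3.22%. At the thresholds of the series text, an unadjusted p under 0.05 and at least 1.2 fold, the count was 4 of 75, against 3.59% of all genes. The count at p under 0.05 was 3 without TES array 3 and 3 without sham array 4.

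Differences were small in both directions. Of the 75 genes, 23 had a higher mean and 52 a lower mean in TES retinas (69.3% lower), against 54.9% lower over all genes. The median difference was -0.035 over the 75 genes and -0.013 over all genes, and the range over the 75 ran from -0.42 for Rps12 to 0.38 for Rpl6. The median standard error was 0.109, and 49 of the 75 differences were smaller than it in size. The 95% interval lay inside 1.2 fold either way for 25 of the 75 genes (33.3%, against 25.9% of all genes) and inside 1.5 fold for 70 (93.3%, against 94.4%). With arrays centred on their medians the number lower was 39 of 75, beside 43.3% of all genes, and with quantile normalization it was 46 of 75, beside 50.5%.

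**Figure D1:**
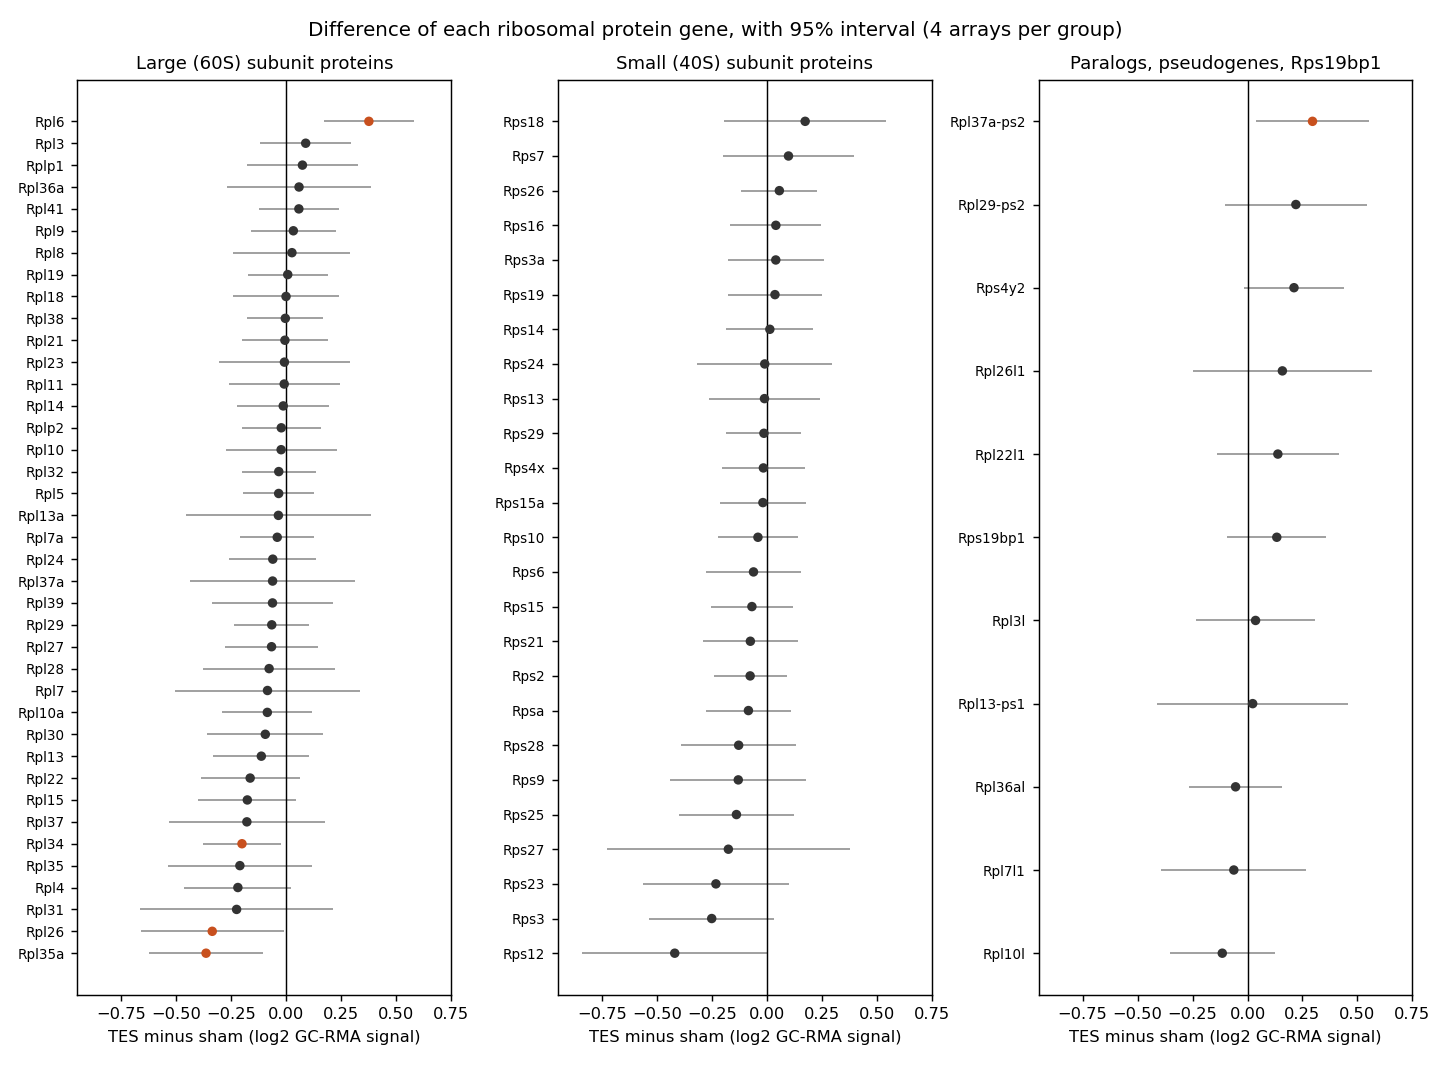
Difference of each of the 75 genes, TES minus sham in log2 GC-RMA signal (horizontal axis), as points with 95% intervals from 4 TES and 4 sham arrays, in panels for large-subunit proteins, small-subunit proteins and the other genes. Orange points are the 5 genes at an unadjusted p under 0.05; most intervals cross 0, and 31 of 39 large-subunit and 18 of 25 small-subunit points lie left of it.

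The large subunit gave 8 genes higher and 31 lower in TES retinas, with a median difference of -0.042. The small subunit gave 7 higher and 18 lower, with a median of -0.041. The 4 subunit genes at an unadjusted p under 0.05 were all of the large subunit, and whether the subunits differ in this was not tested. The 7 paralogs gave 4 higher and 3 lower (median 0.037), and the 3 pseudogenes gave 3 higher and 0 lower.

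Signal level moved with direction over the whole array. In the lowest quartile of signal the median difference over all genes was 0.034, and 40.7% of genes were lower. In the 3 higher quartiles the all-gene medians were -0.026, -0.034 and -0.017. The ribosomal protein genes had medians of 0.067 in the lowest quartile (10 genes) and then of -0.062 (9 genes), -0.069 (20 genes) and -0.029 (36 genes). The part of signal level in the count of lower genes was not tested.

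**Figure D2:**
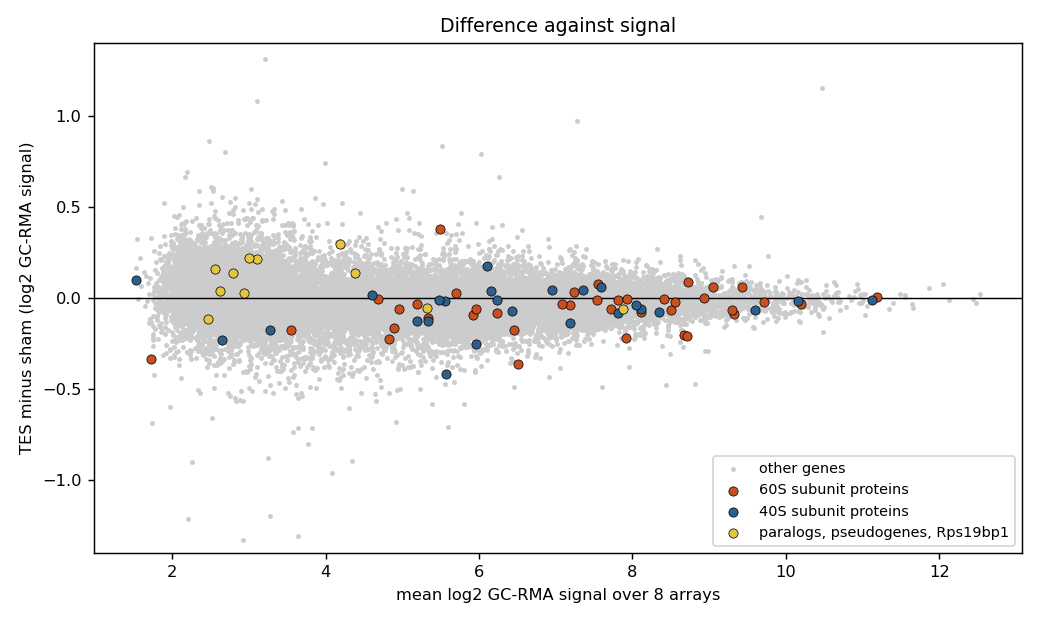
Difference, TES minus sham in log2 GC-RMA signal (vertical axis), against mean log2 signal over 8 arrays (horizontal axis), with large-subunit genes in orange, small-subunit genes in blue, paralogs, pseudogenes and Rps19bp1 in yellow, and all other genes in grey. The ribosomal protein genes lie between -0.42 and 0.38, inside the grey cloud, and their differences are smallest at high signal.

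Single arrays weighed on the count of lower genes. Averaged over the 75 genes, the deviation from each gene's own 8-array mean was 0.00, -0.02, 0.01 and -0.06 on TES arrays 1 to 4, and 0.01, 0.01, 0.01 and 0.04 on sham arrays 1 to 4. TES array 4 stood lowest and sham array 4 highest, and the other 6 arrays lay close together around 0. On TES array 4, 51 of the 75 genes lay below their own mean, against 34 to 40 on the other TES arrays and 31 to 41 on the sham arrays. Without TES array 4, 42 of 75 genes were lower (all genes 53.7%), and without sham array 4 the number was also 42 (all genes 52.7%). The mean pairwise correlation of deviations from the group mean was low, at 0.016 over the 75 genes and 0.003 over all genes. Among genes above the low-signal level it was 0.040 over 66 ribosomal protein genes and 0.020 over 12503 genes in all. These values are across 8 arrays that share their processing.

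**Figure D3:**
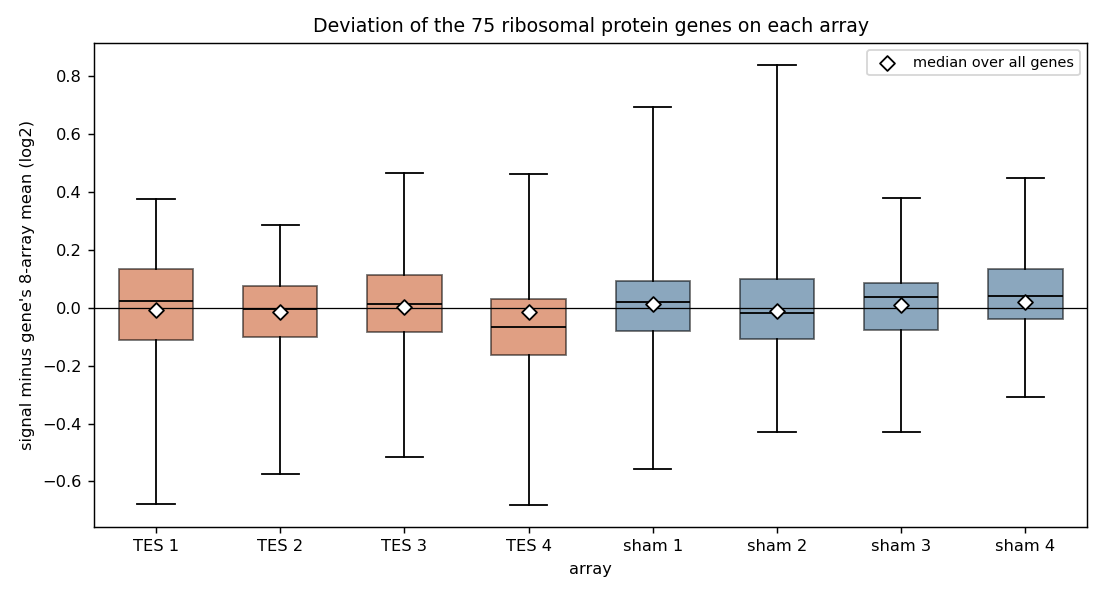
Deviation of the 75 ribosomal protein genes from their own 8-array mean, in log2 signal (vertical axis), on each TES array (orange) and each sham array (blue); boxes are quartiles with the median, whiskers run to the lowest and highest gene, and diamonds are the median over all genes. The box of TES array 4 sits lowest, with 51 of 75 genes below 0.

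Rpl6 encodes a protein of the large subunit. Its signal was 5.73, 5.72, 5.64 and 5.63 on TES arrays 1 to 4, against 5.38, 5.09, 5.33 and 5.43 on sham arrays 1 to 4. All 4 TES arrays lay above all 4 sham arrays. The means were 5.68 ± 0.06 in TES retinas and 5.31 ± 0.15 in sham retinas (SD, n = 4 arrays each), a difference of 0.38 (95% interval 0.17 to 0.58), with an unadjusted p of 0.00182 and an adjusted p of 0.817 in limma. Groups that do not overlap, with TES above, occurred in 1.32% of all genes, and Rpl6 was the 1 ribosomal protein gene of that kind.

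This value of Rpl6 rests on 1 probe set. The array holds 4 further probe sets whose annotation names both Rpl6 and the pseudogene Rpl6-ps1, and which the choice of genes left out. Their mean was 8.09 ± 0.12 in TES retinas and 8.05 ± 0.11 in sham retinas (SD, n = 4 arrays each), a difference of 0.05. Singly they differed by -0.01 to 0.14, and the smallest unadjusted p among them was 0.436. With all 5 probe sets averaged the difference of Rpl6 was 0.11 (95% interval -0.09 to 0.31, unadjusted p = 0.238, limma), and its groups overlapped.

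Rpl35a encodes another large-subunit protein, whose human counterpart is mutated in some families with Diamond-Blackfan anaemia, a failure of red cell production. Its mean signal over 8 probe sets was 6.55, 6.27, 6.29 and 6.16 on TES arrays 1 to 4, against 6.85, 6.41, 6.78 and 6.71 on sham arrays 1 to 4. The groups overlapped through TES array 1 and sham array 2, and the other TES arrays lay below every sham array. The means were 6.32 ± 0.16 in TES retinas and 6.69 ± 0.19 in sham retinas (SD, n = 4 arrays each), a difference of -0.37 (95% interval -0.62 to -0.11), with an unadjusted p of 0.00972 and an adjusted p of 0.823 in limma.

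A single dim probe set carried most of that difference. Probe set 10754699 of Rpl35a read 2.44, 1.94, 1.76 and 2.39 on TES arrays 1 to 4, against 4.06, 3.30, 4.28 and 3.53 on sham arrays 1 to 4. The groups did not overlap, and the difference was -1.66 (unadjusted p = 0.000222, adjusted p = 0.725 over all probe sets, limma). Its mean signal, 2.96, lies below the low-signal level of probe sets, 3.21. Every sham value lies above that level and every TES value below it. A second probe set of Rpl35a differed by -0.67 (unadjusted p = 0.0834), and the other 6 by -0.24 to 0.03. Without probe sets at low signal, Rpl35a differed by -0.18 (unadjusted p = 0.164, limma). That filter uses the mean over all arrays, which the TES values of 10754699 lower, so it is not independent of the difference. By its median probe set, Rpl35a differed by -0.03 (unadjusted p = 0.834, limma).

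Rpl34, also of the large subunit, read 8.45, 8.55, 8.65 and 8.63 on TES arrays 1 to 4, against 8.70, 8.77, 8.82 and 8.78 on sham arrays 1 to 4. Every TES array lay below every sham array, the 1 ribosomal protein gene of that kind, where 1.98% of all genes are so. The means were 8.57 ± 0.09 in TES retinas and 8.77 ± 0.05 in sham retinas (SD, n = 4 arrays each), a difference of -0.20 (95% interval -0.38 to -0.02), with an unadjusted p of 0.0290 and an adjusted p of 0.843 in limma. All 3 of its probe sets were lower, by 0.07, 0.16 and 0.38, and the brightest was the one at -0.07. The unadjusted p of Rpl34 was above 0.05 without TES array 1, TES array 2, sham array 3 or sham array 4, at 0.0865, 0.0593, 0.0694 and 0.0572, and with median-centred arrays, at 0.0617. It was 0.173 by the median probe set (difference -0.16) and 0.465 by the brightest (difference -0.07).

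Counted in either direction, groups did not overlap for 2 of the 75 genes, Rpl6 and Rpl34, against 3.31% of all genes. With 1 array left out the count ran between 2 (without TES array 3) and 8 (without sham array 3), against 5.83% and 6.29% of all genes in the same settings, fewer arrays being easier to separate. With the probe sets that name several genes added, it was 1.

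Rpl26, which lies near the exit of the tunnel through which the new protein leaves the ribosome, rests on 1 probe set at low signal. It read 1.32, 1.56, 1.45 and 1.90 on TES arrays 1 to 4, against 1.84, 1.98, 1.57 and 2.17 on sham arrays 1 to 4. The groups overlapped through TES array 4, which lay above sham arrays 1 and 3. The difference was -0.34 (95% interval -0.66 to -0.01, unadjusted p = 0.0431, adjusted p = 0.882, limma). Leaving out any single array except TES array 4 or sham array 3 gave an unadjusted p above 0.05, up to 0.131. It was 0.0613 where genes took their median probe set, 0.0780 by the brightest and 0.0675 with median-centred arrays. With quantile normalization it was 0.0399 and with the replicate block 0.00812. In the limma fit over all probe sets, the unadjusted p of Rpl26 was not under 0.05.

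Rpl37a-ps2, annotated as a pseudogene of the large-subunit gene Rpl37a, read 4.43, 4.12, 4.59 and 4.21 on TES arrays 1 to 4, against 3.95, 4.00, 4.26 and 3.97 on sham arrays 1 to 4. TES arrays 1 and 3 lay above every sham array, and sham array 3 overlapped with TES arrays 2 and 4. The difference was 0.30 (95% interval 0.04 to 0.55, unadjusted p = 0.0289, adjusted p = 0.843, limma), on 1 probe set. The unadjusted p was above 0.05 without TES array 1 or 3 or without sham array 1, 2 or 4, up to 0.0947. It was 0.0552 where genes took their brightest probe set and 0.0485 by the median probe set. With median-centred arrays it was 0.0174 and with quantile normalization 0.0200. In the limma fit over all probe sets, the unadjusted p of Rpl37a-ps2 was not under 0.05. Probes for a pseudogene may also bind transcripts of its parent, and Rpl37a itself differed by -0.06.

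**Figure D4:**
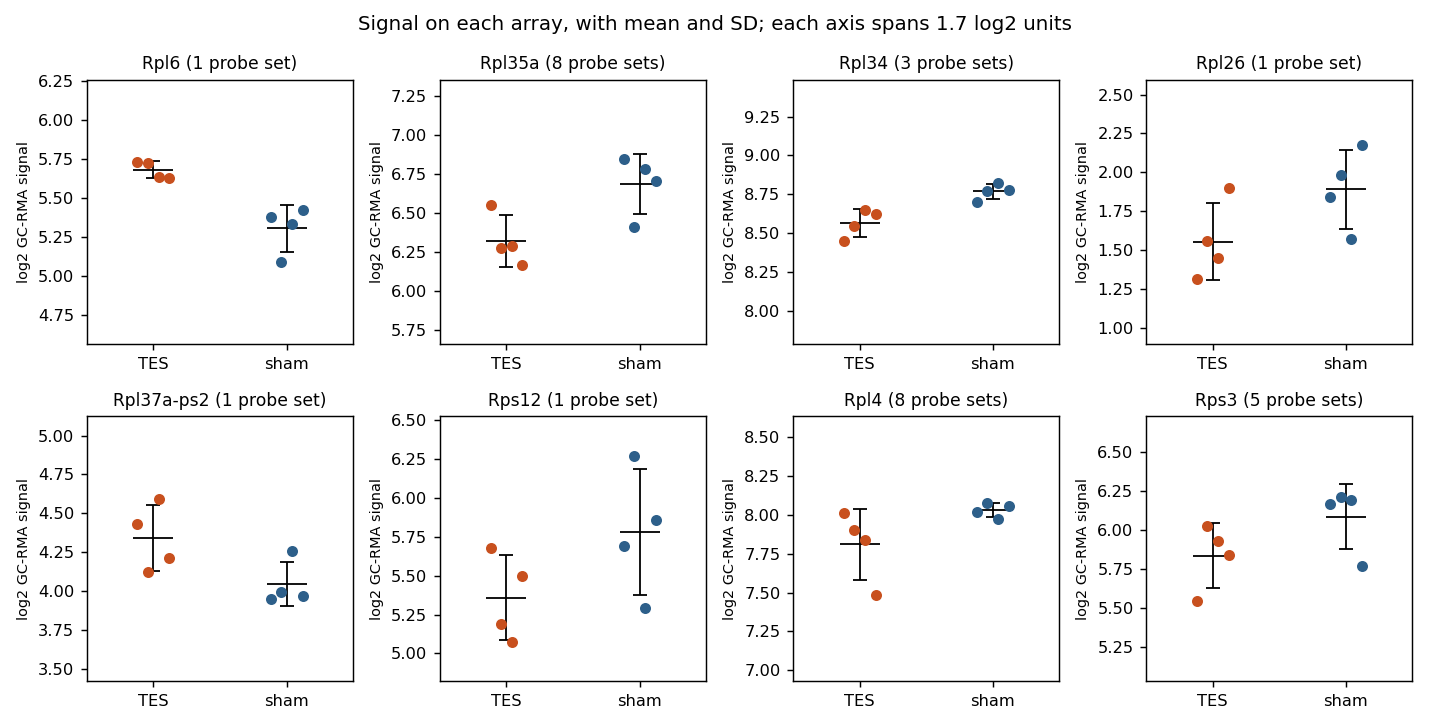
Log2 GC-RMA signal (vertical axes, each spanning the same number of log2 units) on the 4 TES arrays (orange, left) and the 4 sham arrays (blue, right) for 8 genes, with mean and SD as black bars. Rpl6 has all TES points above sham and Rpl34 all TES points below sham; in the other 6 genes the groups overlap.

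The small subunit held no gene at an unadjusted p under 0.05 in the fit reported here. Rps12, whose Drosophila counterpart takes part in cell competition, was nearest. It read 5.68, 5.19, 5.08 and 5.50 on TES arrays 1 to 4, against 5.69, 6.27, 5.29 and 5.86 on sham arrays 1 to 4. TES arrays 2 and 3 were the lowest and sham array 2 the highest, and the groups overlapped. The difference was -0.42 (95% interval -0.84 to 0.00, unadjusted p = 0.0514, adjusted p = 0.883, limma) on 1 probe set. The 6 probe sets that name Rps12 together with another gene differed by -0.28 to -0.09, and all 7 averaged gave -0.20 (unadjusted p = 0.0694). The unadjusted p of Rps12 was below 0.05 without TES array 1 (0.0250) and without sham array 3 (0.00696, with a difference of -0.58). The same held with trend and robust moderation in eBayes (0.0396), with the replicate block (0.0343) and without genes below the median signal (0.0368). Rps23, at low signal, differed by -0.23 (unadjusted p = 0.152, and 0.0353 with the replicate block).

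Rps3, a small-subunit protein at the channel where mRNA enters, read 5.55, 6.03, 5.93 and 5.84 on TES arrays 1 to 4, against 6.17, 6.22, 6.19 and 5.77 on sham arrays 1 to 4. Sham array 4 lay inside the range of the TES arrays, and the other sham arrays lay above all of them. The difference was -0.25 (95% interval -0.54 to 0.03, unadjusted p = 0.0785), and all 5 probe sets of Rps3 were lower. Rpsa, the small-subunit protein also described as a laminin receptor precursor, differed by -0.08 (95% interval -0.28 to 0.11, unadjusted p = 0.363), again with all 4 probe sets lower. Rps6, the substrate of the S6 kinases downstream of mTOR, differed by -0.06 (95% interval -0.28 to 0.15, unadjusted p = 0.546).

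Rpl4, whose extension lines the exit tunnel, read 8.01, 7.90, 7.84 and 7.49 on TES arrays 1 to 4, against 8.02, 8.08, 7.97 and 8.05 on sham arrays 1 to 4. TES array 4 stood far below the rest, and TES array 1 overlapped with sham array 3. The difference was -0.22 (95% interval -0.46 to 0.02, unadjusted p = 0.0719). Of its 8 probe sets the dimmest differed by -1.32 and the other 7 by -0.23 to 0.14. The acidic stalk proteins, which recruit elongation factors to the ribosome, were near 0: Rplp1 differed by 0.07 (95% interval -0.18 to 0.32, unadjusted p = 0.538). Rplp2 differed by -0.02 (95% interval -0.20 to 0.16, unadjusted p = 0.783). Rplp0 is not among the genes of the family under that symbol. Under its older symbol Arbp, which the rule on names left out, it differed by -0.05 at a mean signal of 7.48.

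Rpl5 and Rpl11 join the ribosome with 5S ribosomal RNA and, when unassembled, bind Mdm2. Rpl5 differed by -0.04 (95% interval -0.20 to 0.13), with TES arrays between 7.05 and 7.09 and sham arrays between 7.07 and 7.18. It had the narrowest spread among TES arrays of the 75 genes, an SD of 0.016. Rpl11 differed by -0.01 (95% interval -0.26 to 0.24). The widest spread among sham arrays was that of Rps27, with an SD of 0.523, and the widest among TES arrays that of Rpl31, with an SD of 0.462.

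Of the paralogs, all were measured beside their parent genes, and each difference stands against its own sham arrays. Rpl22l1 differed by 0.14 and its parent Rpl22 by -0.16. Rpl26l1 differed by 0.16, with Rpl26 at -0.34. Rps4y2 differed by 0.21 (unadjusted p = 0.0670), with Rps4x at -0.02. In these 3 pairs the paralog was higher and the parent lower in TES retinas, none of the paralogs reached an unadjusted p under 0.05, and the difference within a pair was not tested. Rpl3l, a form known from heart and skeletal muscle, differed by 0.04, with Rpl3 at 0.09. Rpl10l, known from the mouse testis, differed by -0.11, with Rpl10 at -0.02. Rpl7l1 differed by -0.06 with Rpl7 at -0.09, and Rpl36al by -0.05 with Rpl36a at 0.06.

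Probe sets of a gene are not replicates, but they show how far a gene's mean rests on a few of them. Of the 391 probe sets, 11 had an unadjusted p under 0.05 (2.81%, 7 lower and 4 higher), against a background of 5.13%, and 0 passed an adjusted p of 0.05 (smallest 0.725, limma over all probe sets). Without sham array 2 the count was 4. In all, 248 probe sets were lower (63.4%), against 51.7% of all probe sets. Low signal was less common among them, at 14.3% against 25.2%.

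Of the 57 genes with at least 3 probe sets, 9 had all of them on 1 side of 0. These were Rps3, Rpsa, Rps10, Rpl13, Rpl29, Rpl31, Rpl32 and Rpl34 with all lower, and Rpl41, the shortest of the ribosomal proteins, with all higher (0.04 to 0.08). In Rpl3l, 1 probe set differed far more than the others. Probe set 10732202 of Rpl3l read 4.62, 4.18, 4.38 and 4.10 on TES arrays 1 to 4, against 2.20, 2.69, 3.31 and 2.68 on sham arrays 1 to 4. Its groups did not overlap (difference 1.60, unadjusted p = 0.000162, adjusted p = 0.725, limma), while the other 8 probe sets of Rpl3l differed by -0.49 to 0.03. Averaged without its 7 probe sets at low signal, Rpl3l differed by 0.77 (unadjusted p = 0.000898, limma), against 0.04 over all 9. Low signal is judged by the mean over all arrays, which the TES values of 10732202 raise. The 0.77 is therefore not independent of the difference of that probe set.

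Rpl3, whose product sits near the catalytic centre of the large subunit, had a similar probe set. Probe set 10905531 read 4.54, 5.07, 4.38 and 5.05 on TES arrays 1 to 4, against 4.12, 3.60, 4.22 and 3.11 on sham arrays 1 to 4. All TES values lay above all sham values (difference 1.00, unadjusted p = 0.00842, adjusted p = 0.936, limma). The other 9 probe sets of Rpl3 differed by -0.34 to 0.26.

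**Figure D5:**
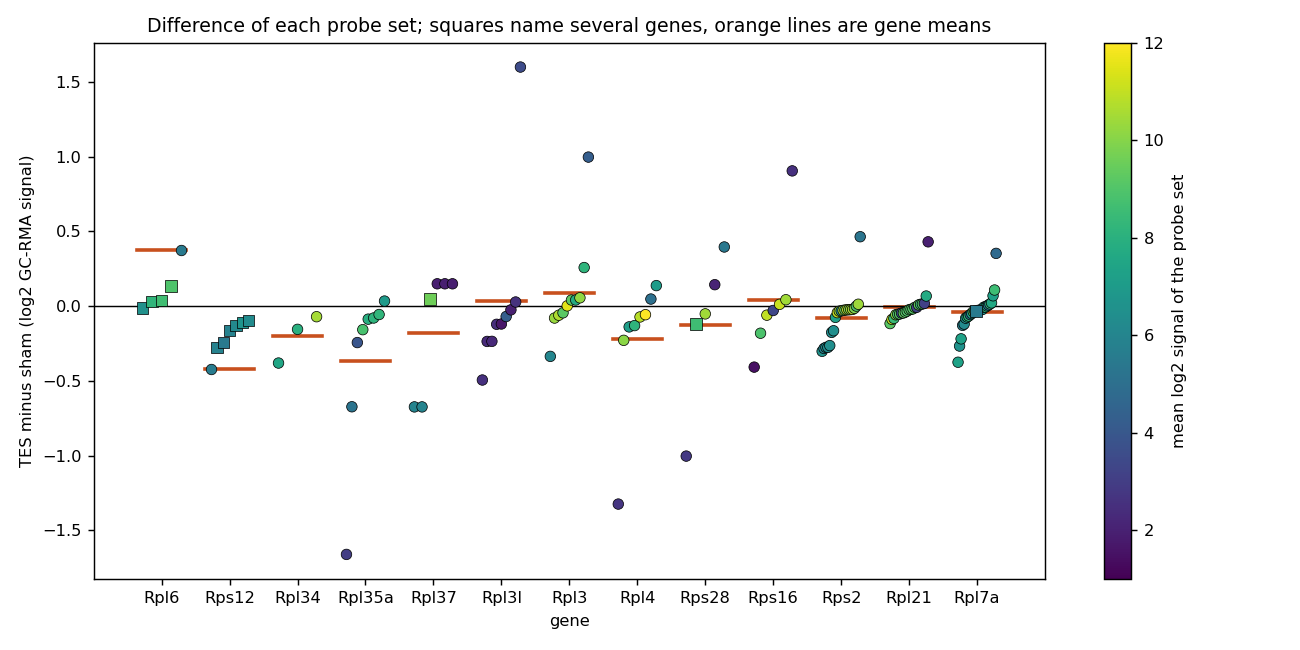
Difference of each probe set, TES minus sham in log2 GC-RMA signal (vertical axis), for 13 ribosomal protein genes, coloured by mean log2 signal; circles name 1 gene, squares name several, and orange lines are the gene means reported here. The points far from 0 are mostly dim, such as that of Rpl35a at -1.66 and that of Rpl3l at 1.60, while the bright points of Rps2, Rpl21 and Rpl7a crowd near 0.

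Some probe sets of the family were copies. In 7 genes (Rpl9, Rpl37, Rpl39, Rps2, Rps10, Rps25 and Rps29), 23 probe sets shared all 8 values with another probe set of the same gene. Shared values were found in 6.14% of the probe sets of the family and in 0.659% of all probe sets. Rpl37 shows the effect on a mean: 2 of its probe sets were identical at -0.67 and the other 3 identical at 0.15, so that its gene mean of -0.18 (unadjusted p = 0.290) rests on 2 distinct measurements. Ribosomal protein genes have many processed pseudogenes in mammalian genomes, and probes may bind their transcripts too.

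Of 80 proteins of the canonical ribosome, 64 are among the 75 genes. The others are not analysed here as members of the family. Through probe sets that name several genes, Rpl12 differed by -0.17 (unadjusted p = 0.0626), Rps20 by -0.09 and Rpl27a by 0.01. Under its older symbol Gnb2l1, Rack1, the scaffold on the small subunit, differed by -0.19 (unadjusted p = 0.190), and Fau by -0.05 (unadjusted p = 0.700).

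The promoter features can be set beside the differences as a description. The 22 genes with a C and pyrimidines at the annotated start, Rpl35a and Rpl34 among them, were 14 lower and 8 higher, with a median of -0.063. The 40 without were 29 lower and 11 higher, with a median of -0.021. The 44 genes with a pyrimidine run near the start were 35 lower and 9 higher (median -0.052), and the 18 without, Rpl6 among them, were 8 lower and 10 higher (median 0.038). The 20 genes with CCGGAAG were 16 lower and 4 higher (median -0.062), against 27 lower and 15 higher of the 42 without (median -0.016). These splits were made with the differences known, and none was tested.

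Other genes of protein synthesis were read from lists. Of 67 mitochondrial ribosomal protein genes, 19 were higher and 48 lower (median -0.053), against 54.9% lower over all genes. At an unadjusted p under 0.05 in limma stood 1 higher and 4 lower, against 2.35% and 3.22% of all genes. Mrpl47 differed by -0.34 (unadjusted p = 0.0177) and Mrps35 by -0.26 (unadjusted p = 0.0219). Of 36 translation initiation factor genes, 20 were higher and 16 lower (median 0.006), with 1 at p under 0.05, Eif3j at 0.29 (unadjusted p = 0.0468), and Eif3f next at -0.18 (unadjusted p = 0.0503). Of 10 elongation and termination factor genes, 3 were higher and 7 lower (median -0.031). Among them Eef1b2, the exchange factor of the elongation factor that brings aminoacyl-tRNA, differed by -0.24 (unadjusted p = 0.0222) and Etf1, the release factor, by -0.20 (unadjusted p = 0.0846).

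Of 36 genes of ribosome biogenesis and the nucleolus, 19 were higher and 17 lower (median 0.003). At p under 0.05 stood 2 in each direction, where all genes give 2.35% higher and 3.22% lower. Taf1d, a subunit of the factor that selects the ribosomal RNA promoter for RNA polymerase I, differed by 0.39 (unadjusted p = 0.0147). Polr1c, a subunit shared by RNA polymerases I and III, differed by -0.22 (unadjusted p = 0.0160). Of 21 genes of the mTOR and S6 kinase axis, 9 were higher and 12 lower (median -0.041), with 1 at p under 0.05, Eef2k, the kinase that slows elongation, at -0.23 (unadjusted p = 0.0317), and Rps6kl1 next at -0.19 (unadjusted p = 0.210). Proteasome subunits, a complex of similar breadth, gave 13 higher and 18 lower of 31 (median -0.015), with Psmd4 at -0.18 (unadjusted p = 0.0790) and Psmc4 at 0.15 (unadjusted p = 0.0902). No gene of these lists passed an adjusted p of 0.05 in limma.

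Marker genes of neighbouring tissues also differed between arrays. Summed on a linear scale, 10 lens genes of the 17 listed gave 332 to 1849 on TES arrays and 253 to 928 on sham arrays. Of the 10, 9 were higher and 1 lower. At an unadjusted p under 0.05 in limma stood 2 higher and 0 lower, against 2.35% and 3.22% of all genes. These were Mip at 0.48 (unadjusted p = 0.00641) and Crygc at 0.43 (unadjusted p = 0.0126). Erythrocyte genes, 6 measured of 10, gave 811 to 1258 on TES arrays and 469 to 1244 on sham arrays, with 6 higher. Pigment epithelium genes, 17 of 18, gave 3768 to 4750 on TES arrays and 4396 to 5051 on sham arrays, with 13 lower. At an unadjusted p under 0.05 in limma stood 5 lower and 0 higher of the 17, against 3.22% and 2.35% of all genes. The smallest p-values were those of Slc26a7 at -0.37 (unadjusted p = 0.00487) and Rpe65 at -0.50 (unadjusted p = 0.0190). Corneal and surface epithelium genes (9 of 12), microglia genes (12 of 13) and vascular genes (10 of 13) had 4 higher in each list. They had 5, 8 and 6 lower. The erythrocyte, corneal, microglia and vascular lists held 0 genes at an unadjusted p under 0.05 in limma. At or below the low-signal level stood 3 of the 10 lens genes, 4 of the 6 erythrocyte genes and 2 of the 17 pigment epithelium genes. The same held for 2 of the 9 corneal, 2 of the 12 microglia and 0 of the 10 vascular genes. The part of these markers in the differences of the ribosomal protein genes was not tested.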

How the data were processed

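RNA of 4 TES and 4 sham retina samples was measured on 1-colour arrays. The authors deposited log2 signals per probe set, made with the GC-RMA algorithm in GeneSpring GX per the series text; GCRMA is named, without a version, in the submitters' processing notes too. Normalization between arrays and the base of the logarithm are not given in the sources used here. Scanner files were not analysed here, and the number of arrays limits the precision.

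Probe sets with exactly 1 symbol in the platform annotation, which can be old, were averaged per gene and array. Of the 75 symbols, 73 are current in RefSeq. TES and sham arrays were compared with limma 3.58.1 (lmFit and eBayes, R 4.3.3), without covariates or a filter on low signal, over 16633 genes and separately over 213067 probe sets. P-values are two-sided, with Benjamini-Hochberg adjustment over the whole table. The code was tested on simulated data. The family and the gene lists were chosen with earlier results of these data known.

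Genes named with full values are Rpl6, Rpl35a, those at an unadjusted p under 0.05 and those whose groups do not overlap. Paralog pairs, stalk proteins and Rpsa are included too. From the lists of protein synthesis, proteasome, rod, lens and pigment epithelium genes, the 2 of smallest p are named. Rps12, Rps23, Rps3, Rpl4, Rps6, Rpl5, Rpl11 and the single probe sets were named after their values were seen. Promoters (RefSeq, GRCr8) were matched by symbol and searched for letters on both strands, pyrimidine tracts on the gene's strand. Alternatives were other probe set summaries, filters on low signal, centring and quantile normalization. Further ones were eBayes with trend and robust moderation, a replicate block and leaving out each array.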

Additional observations from a re-analysis of the deposited data

Results flagged for a closer look

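In 152 groups of 4 arrays, each gene's TES and sham arrays and the family's mean deviation, 1 array stood apart from the other 3 in 13 by Dixon's test, where chance flags about 1 in 20 groups. Among TES groups, array 4 stood lowest for Rpl11 (7.19, the others 7.63 to 7.68), for Rpl41 (9.37, the others 9.48 to 9.51) and for Rps6 (7.97, the others 8.11 to 8.14). TES array 1 stood lowest for Rpl32 (10.10, the others 10.20 to 10.21) and for Rpl38 (8.32, the others 8.44 to 8.45), and TES array 2 for Rps21 (6.27, the others 6.42 to 6.44).

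Among sham groups, array 3 stood highest for Rpl10l (2.72, the others 2.44 to 2.47) and for Rpl37a-ps2 (4.26, the others 3.95 to 4.00). Sham array 2 stood lowest for Rpl39 (7.48, the others 7.82 to 7.87) and for Rps4x (10.01, the others 10.21 to 10.24). Sham array 4 stood lowest for Rps10 (7.98, the others 8.10 to 8.11) and for Rps3 (5.77, the others 6.17 to 6.22), yet its mean deviation over the 75 genes, 0.0437, was the highest of the sham arrays, the others being 0.00847 to 0.0144.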

How the results depend on the processing

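No gene passed an adjusted p of 0.05 under any alternative run (0 with each of the 8 arrays left out). Ribosomal protein genes at an unadjusted p under 0.05 numbered 5 as reported, 2 by the median probe set, and 3 to 7 with 1 array left out. Genes whose groups do not overlap numbered 2 as reported, 1 with probe sets naming several genes added (an alternative chosen after seeing the data), and 2 to 8 with 1 array left out (5.61% to 6.60% of all genes). Genes lower after TES numbered 42 to 55, the median difference was -0.046 to -0.015, and probe sets at an unadjusted p under 0.05 numbered 4 to 12, with 1 array left out. The causes were not tested. No reported difference of the 5 genes at p under 0.05 reversed, but signs turned for 20 of 75 genes by the median probe set, 15 by the brightest probe set, 13 with centred arrays and 6 with quantile normalization.

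With 1 array left out, Rpl6 differed by 0.30 to 0.41 and Rpl35a by -0.46 to -0.31, and both stayed at an unadjusted p under 0.05. Rpl34 ran from -0.23 to -0.16, Rpl26 from -0.45 to -0.24 and Rpl37a-ps2 from 0.21 to 0.37. The same replicate numbers occur in both groups, and whether same-numbered arrays are paired is not known. Deviations of same-numbered arrays correlated at 0.124, 0.132, 0.006 and -0.119, and so few values cannot decide it. Of the 4 TES arrays, 2 correlated best with the sham array of their number. With the replicate number as a block, 7 ribosomal protein genes and 1050 genes in all had an unadjusted p under 0.05, and 0 passed the adjusted threshold. Low signal limits Rpl26, and 1 probe set of Rpl35a is at low signal on the TES arrays but not on the sham arrays.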
